A study of Mus musculus with 6 samples.

Results

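The 9 genes described here are the nuclear effectors of Notch signalling in the segmentation clock: the transcriptional repressors Hes1, Hes5, Hes6, Hes7, Hey1, Hey2 and Heyl, the feedback inhibitor Nrarp, and Rbpj, the DNA-binding protein through which Notch acts on its targets. Every probe set that the platform annotation assigns to exactly 1 of these symbols was taken, which gave 15 of the 22626 probe sets tested and 9 of 12393 named genes. RNA came from mouse embryos at 9.5 days post coitum. Each embryo was cut just behind its newest somite and the allantois was removed, so the piece holds the presomitic mesoderm, the unsegmented tissue that forms somites, together with neural, gut and surface tissue of that level. Wild-type C57BL/6 embryos (3 pools) were compared with embryos homozygous for Dll3tm1Rbe, a neo allele of Dll3 also written Dll3neo and labelled as C57BL/6 (3 pools), on 1 Affymetrix MOE430A array per pool. The series' design text calls the pools biological replicates. The number of embryos in a pool and their phase of the clock are not given in the sources.

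When a Notch receptor is activated by a ligand on a neighbouring cell, its intracellular part is released, enters the nucleus and joins Rbpj and a Mastermind protein to switch on target genes. Among these targets are the Hes and Hey genes, which encode basic helix-loop-helix repressors, and Nrarp, whose product binds the Notch complex and limits its activity. In the presomitic mesoderm several of them are switched on and off in waves, and Hes7, which represses its own gene, is a core part of that oscillator. Dll3 is a divergent Notch ligand, and the comparison asks how far the genes downstream of Notch depend on it.

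Upstream sequence shows which of these genes carry letters that Rbpj is known to recognise close to a start site. The RefSeq promoter table (GRCm38.p6) matched 6 of the 9 genes, namely Hes5, Hes6, Hes7, Hey2, Nrarp and Rbpj, with 8 start sites. Hes6 and Rbpj had a pair of start sites each. Counts by gene below are therefore not in the same unit as shares by window. The 250 bases before each start were searched on both strands for TGGGAA, the core of the Rbpj motif, and for GTGGGAA, a longer form that contains it. TGGGAA was found for 4 of the 6 genes, against 21.6% of the 32851 windows of that length in the table. GTGGGAA was found for 3 of them, Hes5, Hes7 and Hey2, against 5.42% of windows. The next lines give these sites, with the core in capitals on whichever strand it lies, because Hes5 carries a pair of them in opposite orientation.
Hes5 site at chr4:154960685-154960714, plus strand: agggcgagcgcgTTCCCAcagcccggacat
Hes5 site at chr4:154960829-154960858, plus strand: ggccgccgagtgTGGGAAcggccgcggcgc
Hey2 site at chr10:30842973-30843002, minus strand: tgcgcggtggcaTTCCCAcgcctctgccaa
The cores begin 226 and 82 bases before the Hes5 start and 207 bases before the Hey2 start.

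The whole windows of Hes7 and Nrarp are shown because these genes had the largest genotype differences of the 9. Capitals mark TGGGAA on either strand, the E box CACGTG and the Hes-binding class C site CACGCG.
Hes7 window at chr11:69120203-69120452, plus strand: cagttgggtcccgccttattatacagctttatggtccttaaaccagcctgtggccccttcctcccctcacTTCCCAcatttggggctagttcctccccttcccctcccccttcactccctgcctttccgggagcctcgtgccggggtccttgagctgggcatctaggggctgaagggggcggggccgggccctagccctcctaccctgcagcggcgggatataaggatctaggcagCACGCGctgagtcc
Nrarp window at chr2:25180508-25180757, plus strand: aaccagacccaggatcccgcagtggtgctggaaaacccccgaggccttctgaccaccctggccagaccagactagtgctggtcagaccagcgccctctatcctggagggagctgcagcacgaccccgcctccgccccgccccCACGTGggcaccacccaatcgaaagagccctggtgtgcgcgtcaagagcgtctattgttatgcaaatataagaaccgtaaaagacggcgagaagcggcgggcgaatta
The Hes7 window held 1 Rbpj core 180 bases before the start and 1 class C site 14 bases before it. CACGCG occurred in 7.62% of all windows. The Nrarp window held 1 E box 108 bases before the start, a motif found in 6.02% of all windows, and no match to TGGGAA, which says only that these letters are not in this window. For Hes5, Hes7, both windows of Rbpj and 1 of the 2 windows of Hes6 the table's gene model also has a start further upstream, so these windows lie inside the longest model. Rbpj had the shorter core but not the longer form, and neither window of Hes6 had a match.

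The deposited values are ratios: 1 stands for the median of a probe set across all 6 arrays. They compare pools for 1 probe set and carry no absolute level, so levels of different genes cannot be set against each other, and whether a marker gene was present at all cannot be read from them. Dll3 itself was at 1.46, 1.63 and 2.01 in wild-type pools 1, 2 and 3 and at 0.480, 0.476 and 0.537 in mutant pools 1, 2 and 3. It was the 1 probe set of all those tested that passed (limma adjusted p = 0.00691). Its position with respect to the neo insertion was not analysed here, so it checks the labels only in part. Mutant pool 1 stood apart in heart muscle markers: the median log2 ratio of 6 such genes was 2.47 there and between -0.30 and -0.0081 in the other 5 pools. Values without that pool are therefore given for the main results.

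Nrarp had the largest genotype difference of the 9 genes, 1.57-fold and 1.53-fold below the wild type by its 2 probe sets, and Hes7 followed at 1.35-fold. In both genes every mutant pool lay below every wild-type pool. Hes1, Hey1 and Hes5 had smaller differences with overlapping pools, and Hey2, Heyl, Hes6 and Rbpj differed by at most 0.08 on the log2 scale as means over their probe sets. None of the 15 probe sets passed limma's test over all probe sets at an adjusted p of 0.05 (lowest adjusted p = 0.9999), where 0.00442% of probe sets passed. At an unadjusted p under 0.05, limma had 3 of the 15, all of them lower, and 0.548% of all probe sets were lower at that p. The same 3, both of Nrarp and that of Hes7, were lower in the mutant without overlap of the pools, against 1.99% of all probe sets. None was higher without overlap, against 3.05%. By sign alone 10 of the 15 were lower, against 50.9% of all. As the genes were chosen with earlier results of these data known, these counts are a description. In bulk tissue, fewer cells that express a gene and less RNA per cell cannot be told apart.

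**Figure D1:**
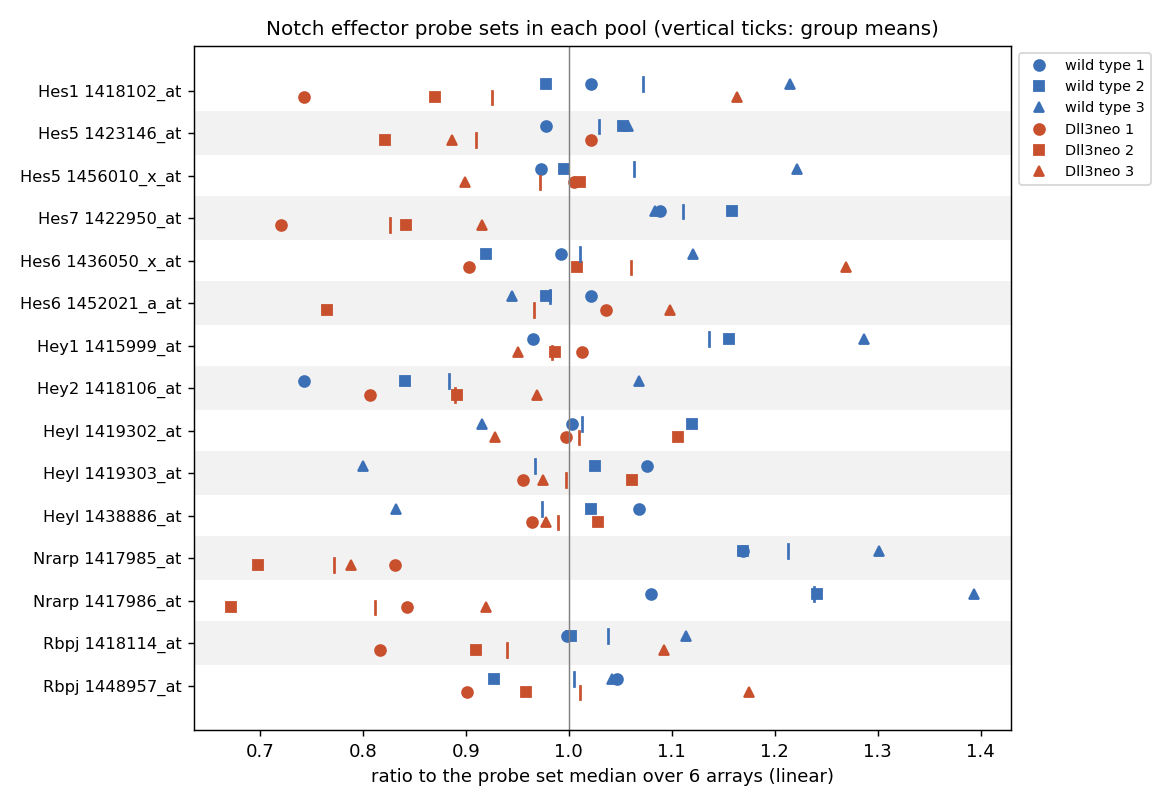
Linear ratio of each of the 15 effector probe sets in each pool, with wild-type pools in blue, mutant pools in orange and vertical ticks at the group means. The orange points lie wholly to the left of the blue points for the 2 Nrarp probe sets and for Hes7, and the colours are mixed in the other 12.

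Nrarp encodes a small ankyrin-repeat protein that binds the Notch intracellular domain with Rbpj and promotes its loss, so that a target of the pathway restrains it. By probe set 1417985_at its ratio was 1.17, 1.17 and 1.30 in the wild-type pools, in the order 1, 2, 3, against 0.831, 0.698 and 0.788 in the mutant pools in the same order. The highest mutant pool thus lay well below the lowest wild-type pool. The means were 1.21 ± 0.0762 and 0.772 ± 0.0679 (SD, n = 3 each), a log2 difference of -0.65 (SE 0.12, limma adjusted p = 0.9999) or 1.57-fold lower, with a 95% interval from 1.31-fold to 1.89-fold. The other probe set, 1417986_at, read 1.08, 1.24 and 1.39 in the wild type against 0.843, 0.672 and 0.920 in the mutant. Its log2 difference was -0.61 (SE 0.15, limma adjusted p = 0.9999), 1.53-fold lower with an interval from 1.21-fold to 1.94-fold. The pair of probe sets gave the same order of genotypes and a similar order of pools, with r = 0.95 over the 6 pools, and both match the same sequence accession, so they are not independent readings of the RNA. Mutant pool 2 was the lowest and wild-type pool 3 the highest by both. Of all probe sets ordered by p, those of Nrarp stood 4th and 9th; 0.0646% of named genes had a lower difference. Without mutant pool 1 the log2 differences were -0.71 and -0.65, and over the sets of 5 pools they ran from -0.71 to -0.58 for the first probe set and from -0.71 to -0.48 for the second. With array weights 1417985_at passed (log2 difference -0.62, limma adjusted p = 0.0256), but those weights put a value of 83.9 on wild-type pool 2 against 0.137 to 0.756 on the other 5, and their estimation did not converge.

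Hes7 encodes the repressor whose delayed autoinhibition drives the mouse segmentation clock, and its transcription is confined mainly to the presomitic mesoderm. Its single probe set, 1422950_at, read 1.09, 1.16 and 1.08 in wild-type pools 1, 2 and 3, a narrow spread, and 0.720, 0.842 and 0.916 in mutant pools 1, 2 and 3. All mutant pools were below all wild-type pools, which by the scaling to the median puts them on either side of 1. Mutant pool 3 was closest to the wild type. The means were 1.11 ± 0.0419 and 0.826 ± 0.0990 (SD, n = 3 each). This was a log2 difference of -0.43 (SE 0.12, limma adjusted p = 0.9999), 1.35-fold lower with a 95% interval from 1.12-fold to 1.63-fold, and the probe set stood 18th by p. Mutant pool 1, the one with high heart muscle markers, was the lowest for Hes7, and without it the difference was -0.34; over all sets of 5 pools it ran from -0.51 to -0.34. An exact two-sided permutation test over the pools gave p = 0.1 for Hes7 and for the mean of the Nrarp probe sets, the smallest p that 3 against 3 pools allow.

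**Figure D2:**
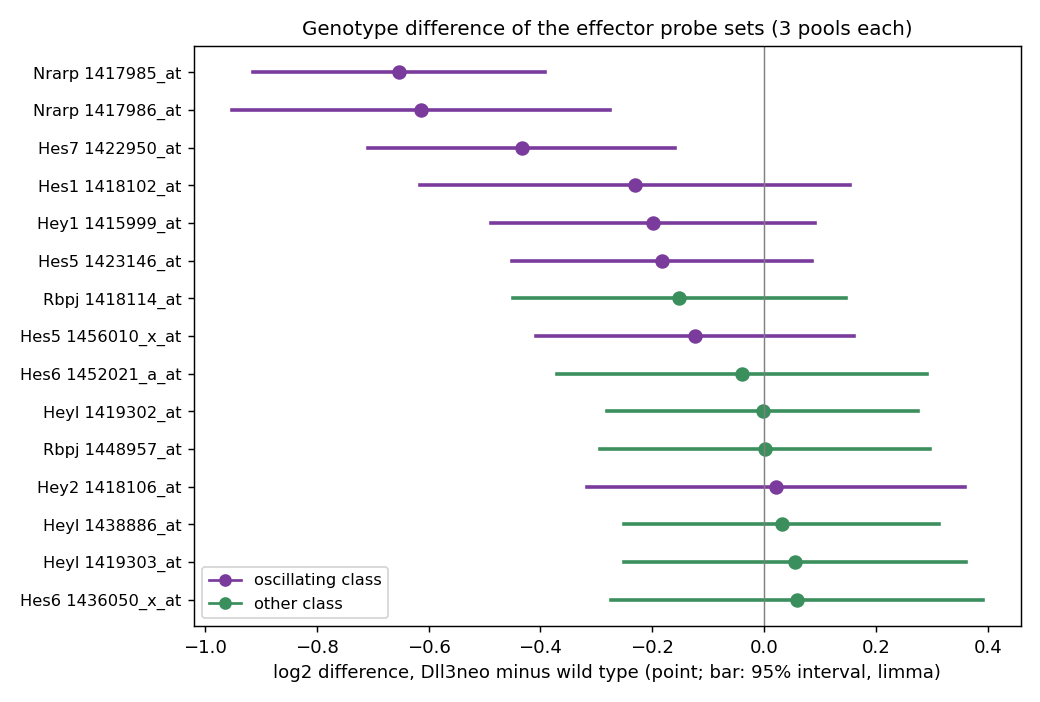
Log2 difference of each effector probe set, mutant minus wild type, with its 95% interval from limma, ordered by size and coloured by class. The unadjusted intervals of the 2 Nrarp probe sets and of Hes7 lie below 0, and the other 12 include 0.

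Hes1 is a broadly expressed Notch target that also cycles in the presomitic mesoderm. Its ratio was 1.02, 0.978 and 1.22 in the wild type against 0.743, 0.870 and 1.16 in the mutant. Mutant pools 1 and 2 lay below all wild-type pools, while mutant pool 3 reached the upper wild-type range. The log2 difference of -0.23 (SE 0.17, limma adjusted p = 0.9999) came with a within-genotype SD of 0.26 on the log2 scale, higher than that of 85.6% of probe sets. It rested in part on mutant pool 1, without which it was -0.09. Leaving out mutant pool 3 gave -0.41, and leaving out wild-type pool 3 gave -0.14.

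Hes5 is a Notch target of neural progenitors and of the presomitic mesoderm. Probe set 1423146_at read 0.978, 1.05 and 1.06 in the wild type against 1.02, 0.821 and 0.887 in the mutant, a log2 difference of -0.18 (-0.27 without mutant pool 1 and -0.11 without mutant pool 2). Probe set 1456010_x_at read 0.973, 0.995 and 1.22 in the wild type against 1.01, 1.01 and 0.899 in the mutant, a difference of -0.12 that became -0.02 without wild-type pool 3. The latter carries the suffix that Affymetrix gives to probe sets whose probes can match other transcripts. The genotypes overlapped by both, and the probe sets followed each other only loosely over the pools (r = 0.48).

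The Hey genes encode relatives of the Hes repressors that are also known from blood vessels and heart. Hey1 read 0.965, 1.16 and 1.29 in the wild type against 1.01, 0.987 and 0.951 in the mutant. Its mutant pools lay close together, wild-type pool 1 fell among them, and wild-type pools 2 and 3 were higher. It had a log2 difference of -0.20 (SE 0.13, limma adjusted p = 0.9999), and -0.22 without mutant pool 1. Leaving out wild-type pool 3 gave -0.10, and leaving out wild-type pool 1 gave -0.31. Hey2 read 0.743, 0.841 and 1.07 in the wild type against 0.807, 0.891 and 0.969 in the mutant. The wild-type range enclosed the mutant range, with a log2 difference of 0.02 (0.09 without mutant pool 1) and a 95% interval from -0.32 to 0.36. The median of this probe set was below 1, as for 1640 probe sets of the file, where a floor appears to have stood in for the median. In mutant pool 1, where the heart muscle markers were high, Hey1 was the highest of the mutant pools at 1.01 and above wild-type pool 1, and Hey2 was the lowest of the mutant pools at 0.807; the part of heart tissue in these values was not tested.

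Heyl was read by 3 probe sets with log2 differences of about 0.00, 0.05 and 0.03. By 1419303_at it read 1.08, 1.03 and 0.800 in the wild type against 0.956, 1.06 and 0.975 in the mutant, and by 1438886_at 1.07, 1.02 and 0.832 against 0.964, 1.03 and 0.978. Wild-type pool 3 was the lowest pool by all 3 probe sets, 1419302_at included (0.916). It was the pool in which Nrarp, Hes1, Hes5, Hey1 and Hey2 were highest, as were some genes outside this group, such as Sox2 and Cdh1. The 95% intervals of the Heyl differences together ran from -0.28 to 0.36.

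Hes6 differs from its relatives in that its product antagonises Hes1 rather than acting as a strong repressor. Probe set 1436050_x_at read 0.992, 0.920 and 1.12 in the wild type against 0.903, 1.01 and 1.27 in the mutant, and 1452021_a_at read 1.02, 0.978 and 0.945 against 1.04, 0.765 and 1.10. The log2 differences were 0.06 and -0.04, of opposite sign, with mutant pool 3 the highest pool by both. The pools followed each other little between the probe sets (r = 0.21). Rbpj, the partner that all activated Notch receptors share, read 0.998, 1.002 and 1.11 in the wild type against 0.817, 0.910 and 1.09 in the mutant by 1418114_at, and 1.05, 0.927 and 1.04 against 0.901, 0.958 and 1.18 by 1448957_at. The log2 differences were -0.15 and 0.0014, with 95% intervals from -0.45 to 0.15 and from -0.29 to 0.30. RefSeq lists 3 Rbpj pseudogenes, and whether the probes also match these was not tested.

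Ordered by the mean log2 difference over probe sets, the genes ran from Nrarp (-0.63) and Hes7 (-0.43) through Hes1 (-0.23), Hey1 (-0.20), Hes5 (-0.15) and Rbpj (-0.08) to Hes6 (0.0095), Hey2 (0.02) and Heyl (0.03). No pair of neighbours in this order was told apart. The difference between Nrarp and Hes7, taken pool by pool, was -0.20 (exact permutation p = 0.4), that between Hes7 and Hes1 was -0.20 (exact permutation p = 0.3), and the 8 neighbouring pairs gave exact p from 0.3 to 1 before any adjustment, with 0.1 the smallest possible.

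**Figure D3:**
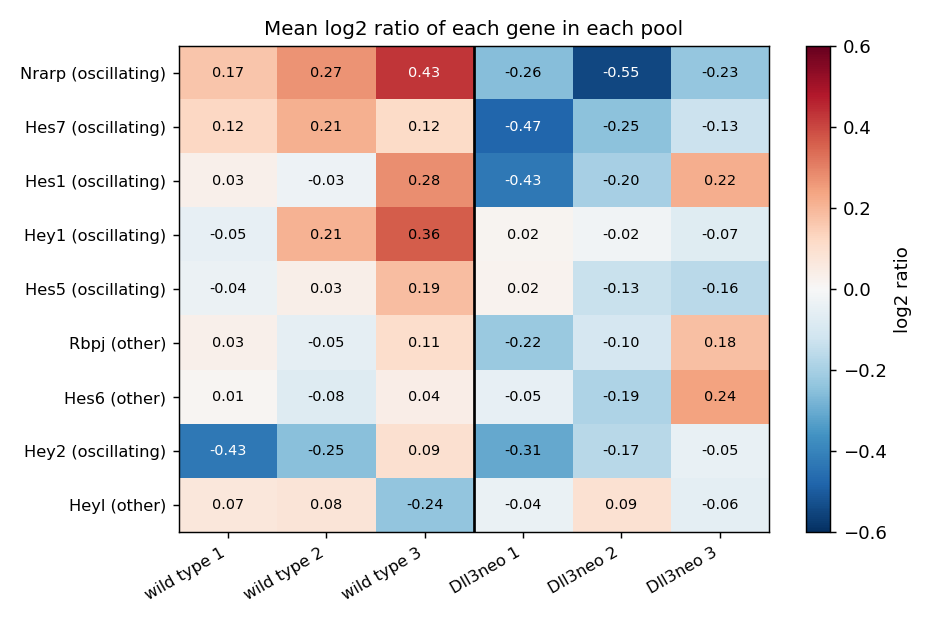
Mean log2 ratio of each effector gene (rows, ordered by genotype difference, class in parentheses) in each pool (columns), with red for high and blue for low and the value printed in each cell. Nrarp and Hes7 are positive in all 3 wild-type pools and negative in all 3 mutant pools, and no other row separates the genotypes.

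The genes were grouped as oscillating in the presomitic mesoderm (Hes1, Hes5, Hes7, Hey1, Hey2 and Nrarp) or not established as such (Hes6, Heyl and Rbpj), a division taken from general knowledge of the mouse clock. The oscillating genes had a median log2 difference of -0.21 (-0.21 also without mutant pool 1), with 5 of 6 lower by sign and 2 of 6 lower without overlap. The 3 others had a median of 0.0095, with 1 of 3 lower by sign and 0 of 3 separated in either direction. Over all 12393 named genes the median was 0.0028, 48.9% were lower by sign and 1.84% were lower without overlap. The median of the oscillating genes was -0.28, -0.18 and -0.10 in the mutant pools, in the order 1, 2, 3, against about 0.00, 0.12 and 0.23 in the wild-type pools, so the genotypes were ordered but wild-type pool 1 lay close to the mutant. For the others the pool medians were 0.03, -0.05 and 0.04 in the wild type against -0.05, -0.10 and 0.18 in the mutant, which overlap. Within each pool, the mean of the oscillating genes minus that of the others was -0.07, 0.09 and 0.27 in the wild type against -0.14, -0.15 and -0.19 in the mutant. The oscillating median ran from -0.29 to -0.12 over the sets of 5 pools, and was closest to 0 without wild-type pool 3. It was -0.33 with Hey1 and Hey2, the members whose oscillation is least established, moved to the other class. The median of Hes6, Heyl and Rbpj was -0.11 when mutant pool 3 was left out. Within the oscillating class Nrarp and Hes7 had the largest differences, and Hey2 had the opposite sign.

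**Figure D4:**
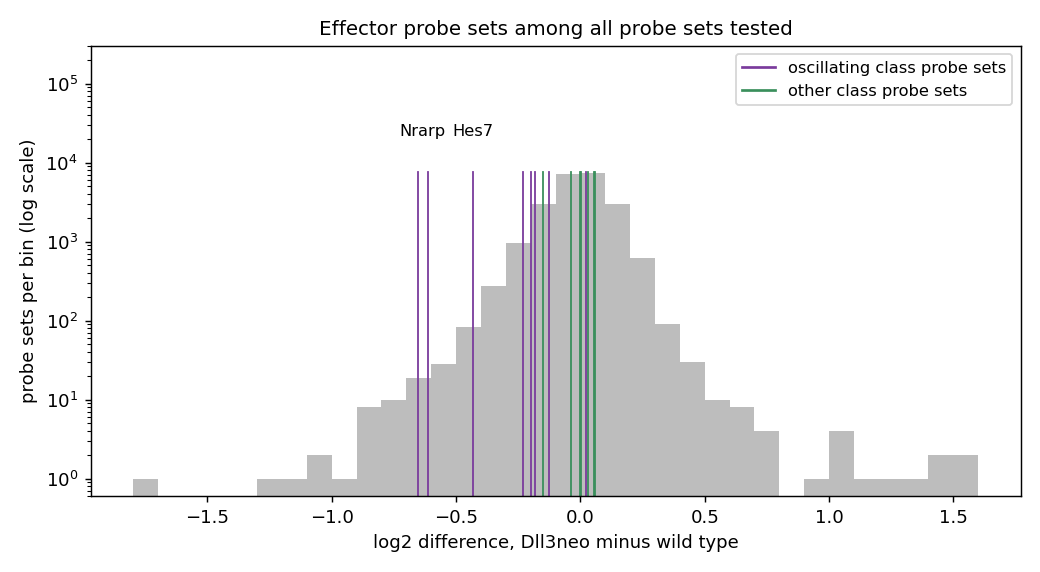
Number of all 22626 probe sets by log2 difference, mutant minus wild type (grey bars, log scale), with a vertical line at each effector probe set coloured by class. The 2 Nrarp lines and the Hes7 line lie in the lower tail. Of all probe sets 0.141% and 0.177% lay below those of Nrarp, and 0.548% below that of Hes7. The lowest of the other lines is Hes1, with 4.23% of probe sets below it.

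Across the 6 pools the effectors did not form 1 pattern. Hes1 followed Rbpj closely (r = 0.96 over 6 pools, and r = 0.98 after removing each genotype's mean), both being high in wild-type pool 3 and mutant pool 3 and low in mutant pool 1. Hes5 followed Hey1 (r = 0.89). Nrarp and Hes7 had r = 0.82, but r = -0.11 after removing each genotype's mean, so they shared the step between genotypes and not the order of pools within them: Nrarp was lowest in mutant pool 2 and Hes7 in mutant pool 1. Within genotypes Heyl ran against each other member but Hes7 (r = 0.18), with r = -0.83 against Nrarp and r = -0.77 against Hey2. These values describe 6 pools that share their arrays. The 5 genes most like Nrarp by Pearson correlation over the 6 pools were Sfxn2, Dusp8, Cts8, Arf6 and Fanci (r from 0.96 to 0.99), and 42 of the 12392 other genes reached 0.9. Those most like Hes7 were Ppt1, Nova1, Snap91, Stk31 and Nlrp5 (r from 0.92 to 0.96), and 11 genes reached 0.9. Their log2 differences, from -0.25 to -0.07 and from -0.13 to -0.04, were smaller than those of Nrarp and Hes7. With r = 0.82, Hes7 stood in place 171 for Nrarp and Nrarp in place 67 for Hes7.

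The partners of the effectors were read from lists of related genes. Over all named genes 48.9% were lower by sign, 1.84% were lower without overlap and 3.11% were higher without overlap. Of the cofactors of Rbpj, that is Mastermind proteins, acetyltransferases and corepressors, 19 were measured, 11 lower and 8 higher by sign (median log2 difference -0.03), with 0 of their 27 probe sets passing in either direction. Among them the coactivator gene Crebbp was higher without overlap (0.17). The Groucho family includes corepressors that Hes proteins recruit. Of 6 Groucho-related genes 4 were lower and 2 higher, with a median of -0.08 and 0 of 10 probe sets passing. Tle5, a short member of the family, read 0.894, 0.911 and 0.878 in the wild type against 1.13, 1.09 and 1.12 in the mutant. Its pools were tight and did not overlap, at a log2 difference of 0.32 from 1 probe set that did not pass. Tle6 was lower without overlap by only -0.08.

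Of the genes that Notch and its effectors share the clock with, 12 were measured, 10 lower and 2 higher by sign (median log2 difference -0.13); 1 of 16 probe sets passed, that of Dll3. The median was -0.07 and -0.06 when mutant pool 1 or mutant pool 2 was left out. Lfng, the glycosyltransferase that modifies Notch and a target of Hes7, had mean ratios of 0.993, 1.18 and 1.21 in the wild type against 0.967, 0.889 and 0.941 in the mutant. Its pools did not overlap, but wild-type pool 1 and mutant pool 1 lay close together, at a log2 difference of -0.27. Dll1, the activating ligand of the presomitic mesoderm, had -0.15 and the segmentation gene Mesp2 -0.18, both with overlapping pools. Of 11 Notch ligand and receptor genes, the mutated Dll3 counted among them, 6 were lower and 5 higher, with a median of -0.01. Dll3, Dll1, Jag1, Axin2, Neurod1 and Sox17 are in more than 1 list, marker lists included, so the counts of the lists are not separate. Dlk1, a ligand-like gene that lacks the receptor-binding domain of the Delta proteins, was higher without overlap (0.48). Genes that Hes proteins are known to repress, proneural genes and cell cycle inhibitors among them, were 8 lower and 4 higher of 12, with a median of -0.03 and 0 of 19 probe sets passing; Cdkn1c was higher without overlap (0.25). Other bHLH-Orange and Id genes were 5 lower and 3 higher of 8, with a median of -0.03, 0 of 12 probe sets passing and none without overlap. Of the Wnt pathway genes tied to Nrarp through Lef1, 4 were lower and 2 higher of 6. Their median was -0.04, with 0 of 14 probe sets passing. Tcf7l1 (0.24) and Tcf7l2 (0.11) were higher without overlap, as were 3.11% of all named genes, and Lef1 itself had -0.09.

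Marker genes of the tissues in the piece moved between pools as well. Beside the counts below, 1.84% of all named genes were lower and 3.11% higher without overlap. Posterior presomitic mesoderm markers, 6 of 8 measured, were all lower by sign (median log2 difference -0.20, and -0.13 when mutant pool 2 was left out), and Tbx6 (-0.39) was lower without overlap. Their pool medians were 0.18, -0.03 and 0.17 in the wild-type pools, in the order 1, 2, 3, against -0.11, -0.26 and 0.08 in the mutant pools in the same order. Mutant pool 2 was thus the lowest both for these markers and for Nrarp, whereas mutant pool 3 exceeded wild-type pool 2 for these markers but not for Nrarp or Hes7. Somite markers were higher in 6 of 6 by sign (median 0.17), with pool medians from -0.18 to 0.04 in the wild type and from -0.08 to 0.23 in the mutant. Neural tube markers, beside which Hes5 and Hes6 are read, were 4 lower and 3 higher of 7, from -0.03 to 0.26 in the wild type and from -0.02 to 0.15 in the mutant. Olig2 was higher without overlap (0.16). Endothelial markers, beside which the Hey genes are read, were 6 higher and 2 lower of 8 (median 0.11, and 0.06 when mutant pool 2 was left out), from -0.10 to 0.05 in the wild type and from -0.03 to 0.20 in the mutant, with Tie1 higher without overlap (0.31). Neuron, endoderm and surface ectoderm markers were 3 of 6, 6 of 8 and 4 of 5 higher by sign, with medians of 0.02, 0.07 and 0.06. Heart muscle markers were higher in 6 of 6 by sign (median 1.05, and 0.07 when mutant pool 1 was left out), with Myh6 at 2.29 in mutant pool 1 and at 0.703 and 0.705 in mutant pools 3 and 2, above a wild-type maximum of 0.689. No probe set of these marker lists passed in either direction, and their part in the effector differences was not tested.

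**Figure D5:**
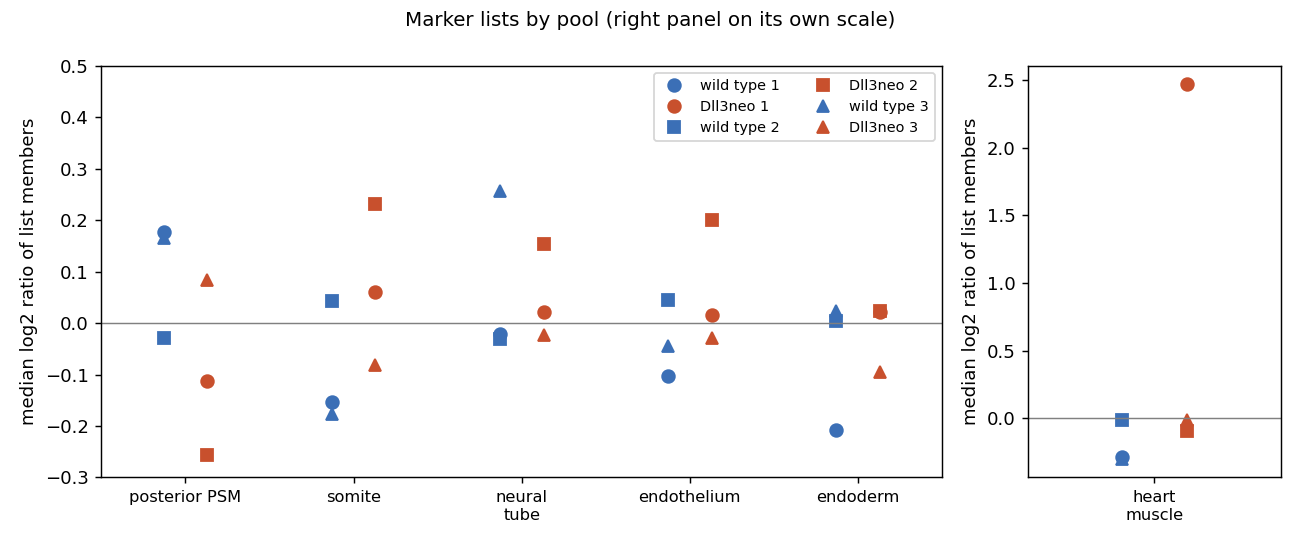
Median log2 ratio of the members of 6 marker lists in each pool, with wild-type pools in blue and mutant pools in orange; heart muscle has its own axis. Posterior presomitic mesoderm markers run from -0.03 to 0.18 in the wild type and from -0.26 to 0.08 in the mutant, and mutant pool 1 stands at 2.47 in heart muscle markers.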

How the data were processed

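Values were ratios in the deposited series matrix. The authors' scaling was read from the values: the median of the 6 arrays is 1 within 0.0011 for 92.8% of probe sets. The submitters' processing notes name RMA and MAS5 but not what each was used for, so summarisation, background correction, normalization between arrays and intensity stay unknown. The 64 control probe sets were left out, and 22626 were tested. By the platform annotation 20380 have 1 symbol, of which 20351 were updated by Entrez ID through the RefSeq table of GRCm38.p6; a gene is the mean log2 ratio of its probe sets.

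A two-sided limma model (version 3.58.1, R 4.3.3) with genotype as its single term was fitted by lmFit and eBayes to log2 of the ratio without an offset, with p-values adjusted by Benjamini-Hochberg across the 22626 probe sets, a threshold of 0.05 and 95% intervals not adjusted for multiple tests. Differences are mutant minus wild type. The number of arrays limits the precision. Lists and classes were described by counts and medians without a test. The script was tested on simulated data.

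The members, lists and classes were chosen with earlier results of these data known. Named were all member probe sets, up to 4 genes per list without overlap between genotypes, Lfng, Dll1, Mesp2 and Dll3, and the 5 genes most correlated with Nrarp and with Hes7. Alternatives were quantile normalization, median centring, offsets of 0.1 and 1, a filter on medians below 1, variance trend with robust variances, array weights, the replicate number as a block, the median probe set per gene, pooled probe sets, class membership and leaving out each pool. Promoter sequences are RefSeq's. Plots used matplotlib 3.10.9 in Python 3.11.15.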

Additional observations from a re-analysis of the deposited data

How the results depend on the processing

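None of the 15 effector probe sets passed in limma under quantile normalization, median centring, either offset, the filter on medians below 1 (which removed Hey2), trend with robust variances, the replicate number as a block or without any 1 pool (3 had an unadjusted p under 0.05 with all pools), with the lowest adjusted p between 0.748 and 1. With array weights 1 passed, Nrarp 1417985_at. The replicate numbers were not taken as pairs in the main fit. Same-numbered pools deviated together with r = 0.21, 0.02 and 0.17, against r from -0.21 to 0.08 for pools with different numbers. These values do not settle whether the numbers mark pairs. With the number as a block 0 of 15 passed. Signs turned only for probe sets near 0: with array weights for Heyl 1419303_at (-0.031) and 1438886_at (-0.040), with quantile normalization for Heyl 1438886_at (-0.021) and with median centring for Rbpj 1448957_at (-0.0025). Without 1 pool the log2 differences ran from -0.079 to 0.17 for Hes6 1436050_x_at, -0.14 to 0.12 for Hes6 1452021_a_at, -0.096 to 0.17 for Hey2, -0.073 to 0.072 for Heyl 1419302_at, -0.076 to 0.14 for 1419303_at, -0.078 to 0.10 for 1438886_at and -0.11 to 0.080 for Rbpj 1448957_at. The median of the oscillating class was -0.11 with an offset of 1 and -0.33 with Hey1 and Hey2 in the other class. For the other class as first defined (Hes6, Heyl and Rbpj) the median ran from -0.11 to 0.034 without 1 pool. Without 1 pool, list medians ran from -0.062 to 0.089 for Rbpj cofactors, -0.11 to 0.033 for Groucho genes and -0.071 to 0.037 for genes repressed by Hes. They ran from -0.085 to 0.011 for ligands and receptors, -0.17 to -0.061 for clock partners and -0.031 to 0.0046 for bHLH-Orange and Id genes. List medians of Wnt pathway genes ran from -0.098 to 0.011 and those of surface ectoderm from -0.031 to 0.15. For the other marker lists they ran from -0.29 to -0.13 for posterior presomitic mesoderm, 0.12 to 0.26 for somite, -0.053 to 0.10 for neural tube, 0.058 to 0.18 for endothelium, -0.00072 to 0.074 for neuron, -0.031 to 0.12 for endoderm and 0.075 to 1.51 for heart muscle. An offset of 1 shrinks the log2 differences of ratios near 1 by arithmetic, and that of Nrarp 1417985_at went from -0.65 to -0.32. The cause of the other shifts was not tested. Nrarp and Hes7 kept their direction in every alternative run. As every mutant pool lay below every wild-type pool for both, no offset, weight, block or omitted pool could have turned the sign.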
